A study of Saccharomyces cerevisiae with 6 samples.

Results

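The genes examined here are the 36 *S. cerevisiae* genes of sulfate assimilation and methionine synthesis, together with their transporters and regulators. They were taken from a list of gene symbols, matched through the systematic name of each probe, and make up 36 of the 6256 genes on the array. Every probe that is not a control is counted as a gene. RNA was measured after 9 h of oxygen-limited fermentation in yeast extract and peptone medium with 50 g/L xylose, on 3 single-colour Agilent arrays for each of a pair of xylose-fermenting strains. The control, YΔG/XK/XI, derives from the laboratory strain YPH499, which has mutations in *ura3*, *trp1*, *lys2*, *leu2*, *his3* and *ade2*. It lacks the aldose reductase gene *GRE3*, overexpresses the xylulokinase gene *XKS1* from the *TDH3* promoter and carries several integrated copies of the *Orpinomyces* xylose isomerase gene *xylA*. The disruptant, YΔGP/XK/XI, has all of these changes, and in addition its phosphatase gene *PHO13* was replaced with *KanMX*. Each genotype was represented by a single named strain. The arrays are numbered runs of an experiment done in triplicate, and nothing further says that they came from separate cultures, so the p-values measure the spread between these samples, which may be partly technical. The comparison asked how expression differed once *PHO13* was disrupted.

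Yeast takes up sulfate and activates it with ATP, and then reduces it to sulfide by a chain of enzymes that consumes NADPH. Sulfide is joined to a carbon skeleton made from aspartate to give homocysteine, from which methionine, cysteine and S-adenosylmethionine are formed. The genes of the chain are switched on by the activator Met4, which reaches DNA through Cbf1, Met28, Met31 and Met32, and Met4 is held in check by the ubiquitin ligase subunit Met30. When methionine is plentiful the pathway is known to be repressed, and complex media such as the medium used here supply methionine.

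Each value below is a normalized log2 signal, which is the log2 intensity of the gene's probe minus the log2 of the 75th percentile of its array, and a difference of 1 is a factor of 2. Differences are the disruptant minus the control, their standard errors (SE) come from the limma fit, and they were called at a limma p under 0.05 after Benjamini-Hochberg adjustment over all 6256 genes. With 3 arrays in each strain the smallest two-sided p of an exact permutation test is 0.1, so the calls were taken from limma, fitted across all genes. The 75th percentile intensity was 3782 to 7632 units, 94.3 to 97.0% of the probes were well above background on an array, and the arrays held 0 saturated spots. The probe of *PHO13* was well above background on 3 of 3 control arrays and 0 of 3 disruptant arrays. That of *GRE3*, deleted in both strains, was so on 0 of 3 arrays of each. The overexpressed *XKS1* had signals of 4.55, 4.49 and 4.80 in the control and 4.18, 4.05 and 4.24 in the disruptant. Its level thus differed between the strains as well, and the reason was not tested. Of the 36 genes, 35 were well above background on all 6 arrays, and the exception was *SUL1*. Each probe was present in 7 spots, whose SD on an array had a median of 0.06 for the 36 genes, against a median SD between arrays of 0.12 in the control and 0.10 in the disruptant. Each gene had a single probe, so cross-hybridization between the paralogs *SUL1* and *SUL2*, *SAM1* and *SAM2*, *MET12* and *MET13*, *STR2* and *STR3*, *MET31* and *MET32*, *MHT1* and *SAM4*, or *MMP1* and *SAM3* was not tested.

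Of the 36 genes, 23 were lower in the disruptant, 1 was higher and 12 were not called. The whole array had 1033 genes called higher and 819 lower. By share, 13.1% of the genes were called lower, 16.5% were called higher and 29.6% were called in either direction. The split of all genes moved with the scaling, to 838 higher and 1137 lower with scaling to the array median and 910 and 991 with quantile normalization, and the median of all genes moved by less than 0.1. The median log2 fold change of the 36 genes was -0.41, against 0.01 over all genes, and 31 of the 36 were below 0. In 26 of the 36 genes the 3 arrays of one strain all lay apart from those of the other, with the disruptant below in 25 and above in 1. Over all genes this held for 46.6%, with the disruptant below in 21.5% and above in 25%. The 10th percentile of the log2 fold changes of all genes was -0.35, and 20 of the 36 genes (55.6%) lay below it. Most of these differences were moderate, and *SUL1* alone among the 36 was called with a change of more than 2-fold. With normexp background correction and its offset of 50 units, the log2 fold change of *SUL1* was -0.59. For all genes the share called and more than 2-fold lower was 0.623%. The plot of the signal on each array shows the 36 genes in the order of the pathway.

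**Figure D1:**
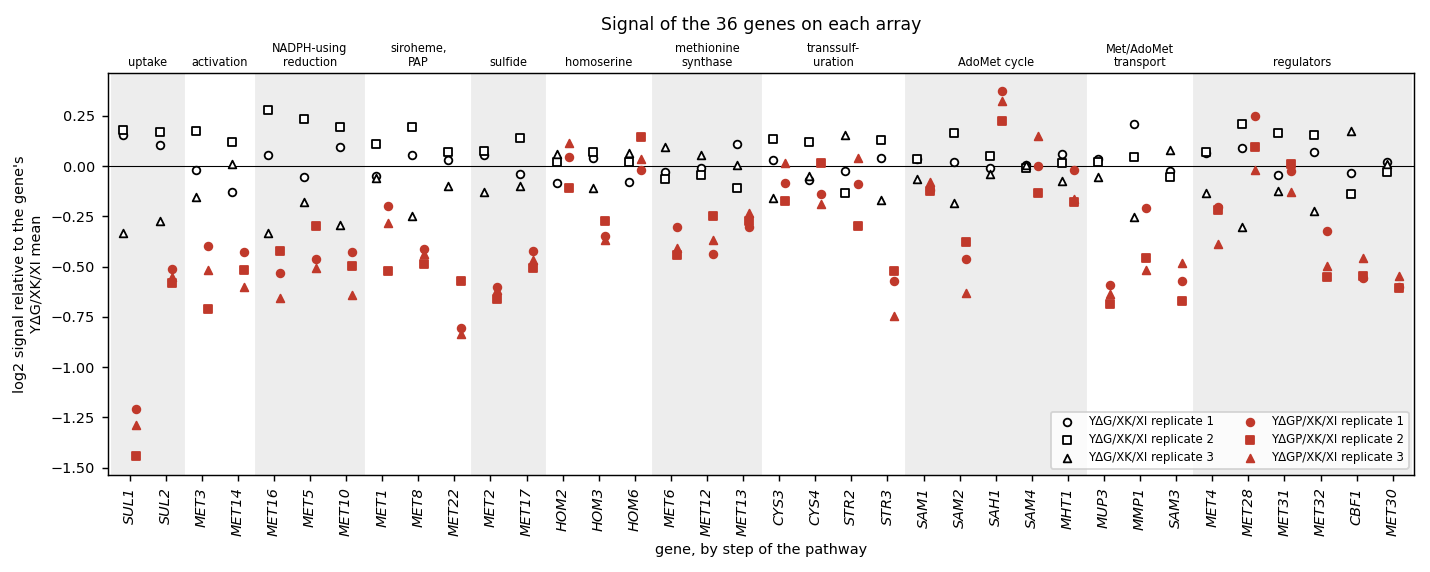
Normalized log2 signal of each gene on each of the 6 arrays, relative to the gene's mean in YΔG/XK/XI (open symbols, n = 3; filled symbols, YΔGP/XK/XI, n = 3), with genes along the x axis grouped by step. All 3 filled symbols lie below the open ones in 25 of the 36 genes, and *SUL1* shows the widest gap.

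The decrease covered the whole route from sulfate to sulfide. All 10 genes for sulfate uptake, activation and reduction were called lower, with a median log2 fold change of -0.53 and a range from -1.31 to -0.34. Among the 3 genes for the steps that consume NADPH, *MET16* and the sulfite reductase genes *MET5* and *MET10*, the median was -0.52.

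The sulfate permease gene *SUL1* (YBR294W) had normalized log2 signals of -5.24, -5.22 and -5.73 in the control and -6.60, -6.84 and -6.68 in the disruptant. The log2 fold change was -1.31 (SE 0.14), or 2.48-fold lower (adjusted p = 3.69e-04). The probe was dim, at 87.5 to 202.1 intensity units in the control and 36.9 to 62 in the disruptant, and was well above background on 2 of the 3 disruptant arrays. The size of the change depended on the processing, and the normexp method, which here added an offset of 50 units, gave a log2 fold change of -0.59. An offset of that size shrinks the ratio of a probe this dim. Its part in the smaller value was not separated from that of the background correction. The other permease gene, *SUL2* (YLR092W), was also lower. Its signals were -0.56, -0.49 and -0.93 in the control and -1.17, -1.24 and -1.21 in the disruptant, a log2 fold change of -0.55 (SE 0.12, adjusted p = 0.00927). In both permease genes replicate 3 of the control was the lowest of its strain and still above every disruptant array.

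Activation of sulfate takes place in successive ATP-dependent steps. *MET3* (YJR010W), which encodes ATP sulfurylase, had signals of -2.04, -1.85 and -2.18 in the control and -2.42, -2.73 and -2.54 in the disruptant. *MET14* (YKL001C), which encodes adenylylsulfate kinase, had signals of 0.30, 0.55 and 0.44 in the control and 0.01, -0.08 and -0.17 in the disruptant. Both genes were lower, with log2 fold changes of -0.54 (SE 0.11, adjusted p = 0.00858) and -0.51 (SE 0.09, adjusted p = 0.00367).

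The activated sulfate, PAPS, is reduced to sulfite by the product of *MET16* (YPR167C), which draws electrons from thioredoxin and so from NADPH. Its signals were -0.98, -0.76 and -1.37 in the control and -1.56, -1.45 and -1.69 in the disruptant. The highest disruptant array lay close below replicate 3 of the control, and the groups did not overlap. The log2 fold change was -0.54 (SE 0.15, 1.45-fold lower, adjusted p = 0.0267). Sulfite reductase, which uses NADPH directly, is built from the products of *MET5* and *MET10*. For *MET5* (YJR137C) the signals were -0.26, 0.04 and -0.38 in the control and -0.66, -0.49 and -0.71 in the disruptant. For *MET10* (YFR030W) they were 0.97, 1.07 and 0.59 in the control and 0.45, 0.38 and 0.23 in the disruptant. Both subunit genes were lower, with log2 fold changes of -0.42 (SE 0.12, adjusted p = 0.0261) and -0.52 (SE 0.13, adjusted p = 0.0173). These 3 genes varied more between the control arrays (SD 0.21 to 0.31, n = 3) than between the disruptant arrays (SD 0.11 to 0.12, n = 3). Each lost its call with certain arrays left out. *MET16* and *MET5* lost it without replicate 1 or 2 of the control and without replicate 1 or 3 of the disruptant, with adjusted p up to 0.0861 and 0.0778. *MET10* lost it without replicate 1 or 2 of the control and without replicate 3 of the disruptant, with adjusted p up to 0.0676.

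*MET1* and *MET8* make siroheme, the prosthetic group of sulfite reductase. *MET1* (YKR069W) had signals of 0.39, 0.55 and 0.38 in the control and 0.24, -0.09 and 0.15 in the disruptant, a log2 fold change of -0.34 (SE 0.10, adjusted p = 0.0375). *MET8* (YBR213W) had signals of -0.97, -0.83 and -1.27 in the control and -1.44, -1.51 and -1.46 in the disruptant, a log2 fold change of -0.45 (SE 0.11, adjusted p = 0.0185). The change of *MET1* was the smallest on the route from sulfate to sulfide, and its call was lost whichever array was left out, apart from replicate 1 of the disruptant (adjusted p = 0.0554 to 0.117). *MET8* lost its call without replicate 1 (adjusted p = 0.069) or 2 (adjusted p = 0.0553) of the control. *MET22* (YOL064C) encodes the phosphatase that removes PAP, the nucleotide released when PAPS is reduced. Its signals of -2.64, -2.59 and -2.77 in the control fell to -3.47, -3.24 and -3.50 in the disruptant. The log2 fold change of -0.74 (SE 0.09, 1.67-fold lower, adjusted p = 8.4e-04) was alike on both slides (-0.74 on each).

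**Figure D2:**
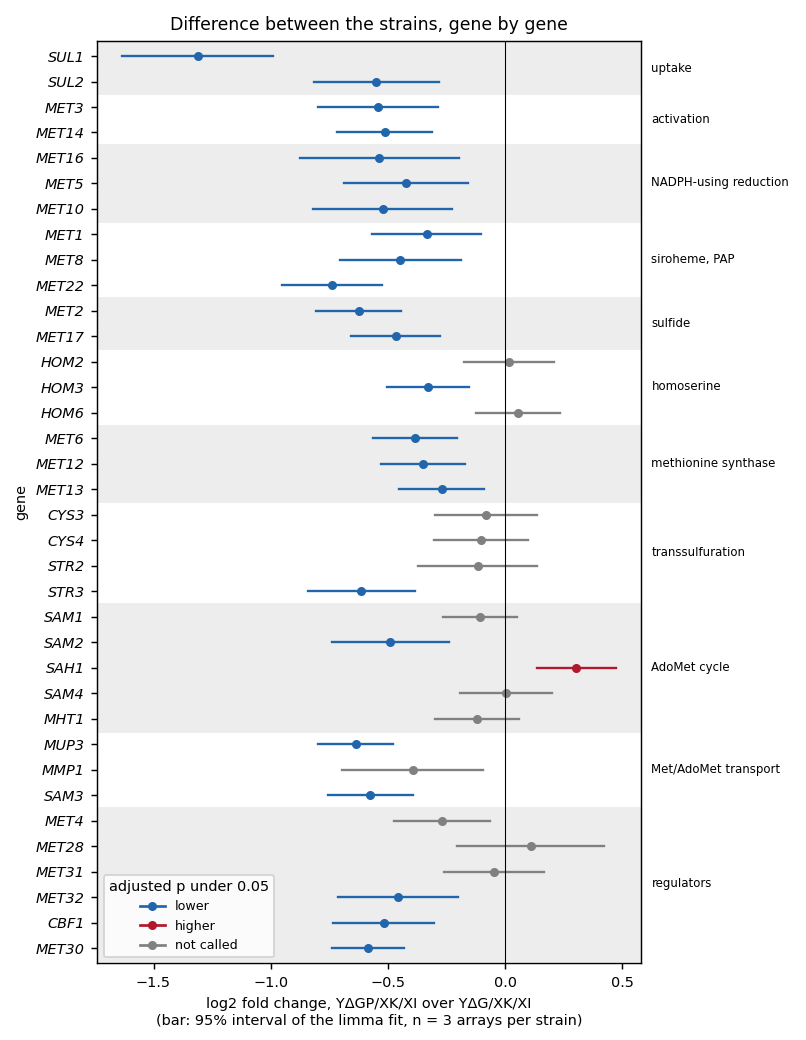
Log2 fold change of each of the 36 genes, YΔGP/XK/XI over YΔG/XK/XI (x axis), with the 95% interval of the limma fit (n = 3 arrays per strain), coloured by the call at an adjusted p under 0.05. From *SUL1* to *MET17* all 12 genes are lower, while the homoserine, transsulfuration and AdoMet (S-adenosylmethionine) genes hold most of the uncalled ones.

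Sulfide enters organic form through *MET2*, which encodes homoserine O-acetyltransferase, and *MET17*, which encodes O-acetylhomoserine sulfhydrylase. Both genes were lower. *MET2* (YNL277W) had signals of 0.32, 0.34 and 0.14 in the control and -0.34, -0.39 and -0.35 in the disruptant, a log2 fold change of -0.63 (SE 0.08, adjusted p = 8.35e-04). *MET17* (YLR303W) had signals of 2.01, 2.19 and 1.95 in the control and 1.63, 1.54 and 1.58 in the disruptant, a log2 fold change of -0.47 (SE 0.08, adjusted p = 0.00416). In each the gap between the groups was wider than the range of either strain.

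The genes that make homoserine from aspartate divided. *HOM3* (YER052C), for aspartate kinase at the entry of the branch, had signals of 0.66, 0.70 and 0.52 in the control and 0.28, 0.35 and 0.26 in the disruptant (log2 fold change -0.33, SE 0.08, adjusted p = 0.014). The call was lost without replicate 1 (adjusted p = 0.0606) or 2 (adjusted p = 0.0518) of the control. The genes of the following dehydrogenases were not called. Their log2 fold changes were 0.02 for *HOM2* (95% interval -0.18 to 0.21) and 0.05 for *HOM6* (95% interval -0.13 to 0.23). With scaling to the array median the sign of both turned.

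The methylation of homocysteine to methionine requires methionine synthase (*MET6*) and a methyl group that *MET12* and *MET13*, the methylenetetrahydrofolate reductase genes, supply on folate. All 3 were lower. *MET6* (YER091C) had signals of -1.22, -1.26 and -1.10 in the control and -1.50, -1.64 and -1.6 in the disruptant (log2 fold change -0.38, SE 0.08, adjusted p = 0.00781). *MET12* (YPL023C) had signals of 1.22, 1.18 and 1.28 in the control and 0.79, 0.98 and 0.86 in the disruptant (log2 fold change -0.35, SE 0.08, adjusted p = 0.0112). In these genes replicate 3 of the control was the highest of its strain, unlike in the sulfate permease and reductase genes. *MET13* (YGL125W) had signals of -0.96, -1.18 and -1.06 in the control and -1.37, -1.34 and -1.30 in the disruptant (log2 fold change -0.27, SE 0.08, adjusted p = 0.0332). This was the smallest decrease that was called, and its call was lost whichever array was left out, apart from replicate 2 of the control (adjusted p = 0.0613 to 0.127).

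Transsulfuration interconverts homocysteine and cysteine. Of its 4 genes only *STR3* (YGL184C), for cystathionine beta-lyase on the way from cysteine to homocysteine, was called. Its signals were -1.24, -1.15 and -1.45 in the control and -1.85, -1.80 and -2.02 in the disruptant, a log2 fold change of -0.61 (SE 0.10, adjusted p = 0.00284). *STR2*, for cystathionine gamma-synthase on the same way, had a log2 fold change of -0.12 (95% interval -0.37 to 0.14). For *CYS4* and *CYS3*, which lead from homocysteine to cysteine, the log2 fold changes were -0.10 (95% interval -0.30 to 0.10) and -0.08 (95% interval -0.30 to 0.14), and the arrays of the strains overlapped.

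Of the 5 genes of the S-adenosylmethionine cycle, 1 was lower, 1 was higher and 3 were not called. *SAM2* (YDR502C), for S-adenosylmethionine synthetase, had signals of 1.05, 1.20 and 0.85 in the control and 0.57, 0.66 and 0.40 in the disruptant (log2 fold change -0.49, SE 0.11, adjusted p = 0.0112). Its paralog *SAM1* had a log2 fold change of -0.11 (95% interval -0.27 to 0.05), and although the 3 disruptant arrays lay below the others, the change was not called (adjusted p = 0.266). The difference between the paralogs was not tested. *SAH1* (YER043C) encodes S-adenosylhomocysteine hydrolase, which recycles the product of methylation reactions, and was the only gene of the 36 called higher. Its signals were 0.21, 0.27 and 0.18 in the control and 0.59, 0.44 and 0.54 in the disruptant, a log2 fold change of 0.30 (SE 0.07, 1.24-fold, adjusted p = 0.0158). The call of *SAH1* was lost without replicate 1 of the control (adjusted p = 0.0614) and without replicate 1 of the disruptant (adjusted p = 0.0618). The homocysteine methyltransferase genes *SAM4* and *MHT1* had log2 fold changes of 0.00 (95% interval -0.19 to 0.20) and -0.12 (95% interval -0.30 to 0.06), and that of *SAM4* turned sign with the scaling.

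Of the 3 transporter genes for methionine and its relatives, 2 were lower and 1 was not called, with a median log2 fold change of -0.58. *MUP3* (YHL036W), a methionine permease gene, had signals of 0.49, 0.47 and 0.39 in the control and -0.14, -0.24 and -0.19 in the disruptant (log2 fold change -0.64, SE 0.07, adjusted p = 4.03e-04). *SAM3* (YPL274W), for an S-adenosylmethionine permease, had signals of 0.04, 0.01 and 0.15 in the control and -0.50, -0.60 and -0.42 in the disruptant (log2 fold change -0.58, SE 0.08, adjusted p = 0.00127). *MMP1* (YLL061W), for an S-methylmethionine permease, had signals of -2.14, -2.30 and -2.60 in the control and -2.55, -2.80 and -2.86 in the disruptant. Here the highest disruptant array exceeded the lowest control array, and the log2 fold change of -0.39 (SE 0.13) missed the threshold (adjusted p = 0.054), which it passed in a fit blocked on slide (adjusted p = 0.0147). *SAM3* lies next to *SAM4* in the genome and *MMP1* next to *MHT1*, with 0 annotated genes between the members of each pair.

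Among the 6 regulators, 3 were lower and 3 were not called, with a median log2 fold change of -0.36. The decreases were in *CBF1* and *MET32*, which encode DNA-binding factors that recruit Met4, and in *MET30*, which encodes the F-box subunit of the ubiquitin ligase that restrains Met4. *MET30* (YIL046W) had signals of 1.16, 1.11 and 1.15 in the control and 0.54, 0.53 and 0.59 in the disruptant. The log2 fold change was -0.59 (SE 0.07, 1.5-fold lower, adjusted p = 4.84e-04), and its arrays within a strain lay close together. *MET30* also acts in cell cycle control and is among the genes that the study picked out on these samples as altered cell cycle genes, so its direction is not independent evidence. *CBF1* (YJR060W) had signals of -2.72, -2.82 and -2.51 in the control and -3.24, -3.23 and -3.14 in the disruptant (log2 fold change -0.52, SE 0.09, adjusted p = 0.00453). Cbf1 also binds centromeres.

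*MET32* (YDR253C) had signals of 0.04, 0.13 and -0.25 in the control and -0.35, -0.58 and -0.52 in the disruptant, a log2 fold change of -0.46 (SE 0.11, adjusted p = 0.0172). It lost its call without replicate 1 or 2 of the control, with adjusted p of 0.0667 and 0.0578. Its paralog *MET31* (YPL038W) had signals of -1.35, -1.14 and -1.43 in the control and -1.34, -1.30 and -1.44 in the disruptant, and the groups overlapped (log2 fold change -0.05, 95% interval -0.26 to 0.16). *MET28* (YIR017C), for a stabilizing partner of Met4 on DNA, had signals of -1.01, -0.89 and -1.40 in the control and -0.85, -1.0 and -1.12 in the disruptant (log2 fold change 0.11, 95% interval -0.21 to 0.42). For the activator gene itself, *MET4* (YNL103W), the signals were -0.32, -0.32 and -0.52 in the control and -0.59, -0.60 and -0.78 in the disruptant. The strains did not overlap, and the log2 fold change of -0.27 (SE 0.09) was the uncalled change nearest to the threshold (adjusted p = 0.0524). A fit blocked on slide called it (adjusted p = 0.0115). These values are of RNA, and the ubiquitylation and binding of Met4, through which the pathway is controlled, were not measured.

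**Figure D3:**
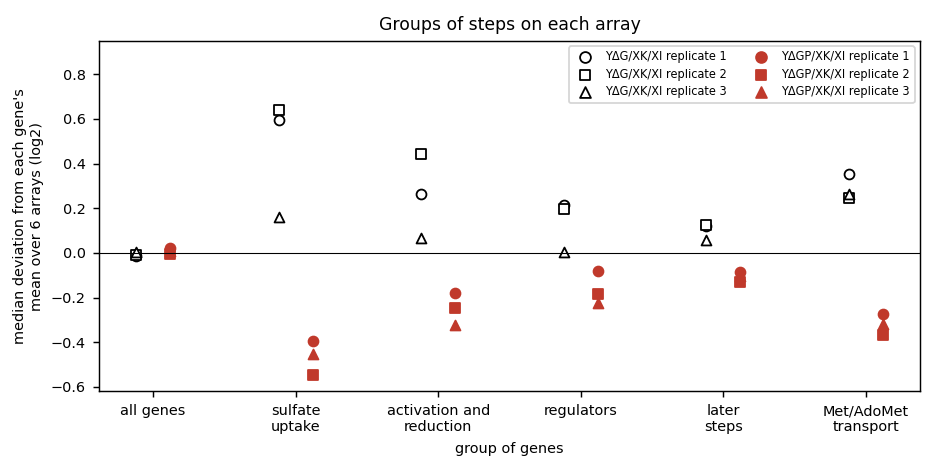
Median deviation of each group's genes from their own mean over the 6 arrays (y axis, log2), by array, for all 6256 genes, the 2 sulfate permease genes, the 8 genes of sulfate activation and reduction, the 6 regulators, the 17 genes of the later steps and the 3 transporters of methionine and S-adenosylmethionine. All YΔG/XK/XI arrays lie above all YΔGP/XK/XI arrays in each group except for all genes, and replicate 3 of YΔG/XK/XI is nearest to the other strain in each of these groups except the transporters.

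Side by side, the median log2 fold change was -0.52 for the 8 genes of sulfate activation and reduction, all of them called lower, and also -0.52 for the 3 among them that use NADPH. For the 6 regulators it was -0.36, with 3 called lower. For the 17 genes of the later steps, from sulfide incorporation through the S-adenosylmethionine cycle, it was -0.12, with 8 called lower and 1 higher. The range of the later steps, -0.63 to 0.30, reached as low as that of the activation and reduction genes, apart from *MET22*. The later genes that were called lower were *MET2*, *MET17*, *HOM3*, *MET6*, *MET12*, *MET13*, *STR3* and *SAM2*. The difference between the groups of steps was not tested. The median of the later steps moved with the scaling, to -0.22 with quantile normalization and -0.18 with scaling to the array median.

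**Figure D4:**
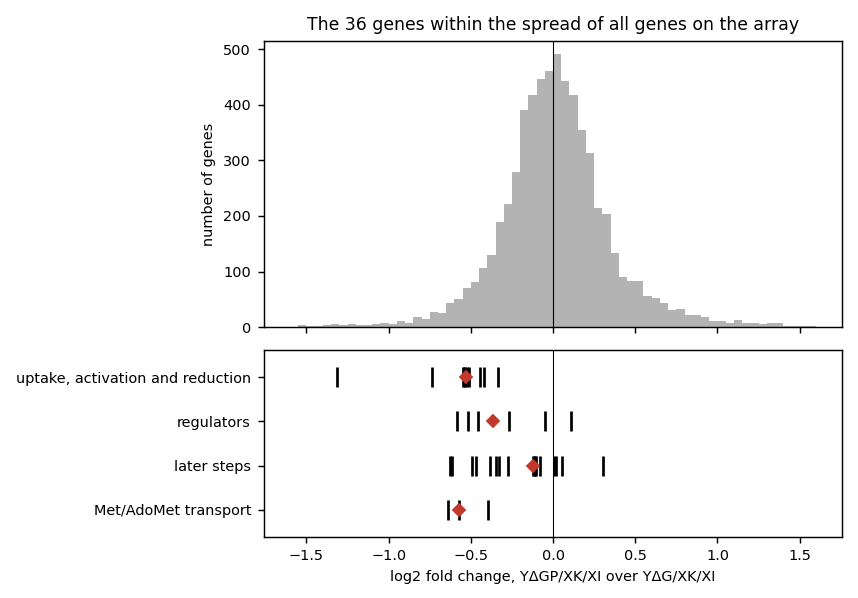
Top, number of genes (y axis) by log2 fold change, YΔGP/XK/XI over YΔG/XK/XI (x axis), for the 6231 of 6256 genes between -1.6 and 1.6; bottom, each of the 36 genes as a tick, with the group median as a diamond. The 10 genes of uptake, activation and reduction all lie below 0, with a median of -0.53, while the 17 later genes spread from -0.63 to 0.30.

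The arrays of the control did not stand equally far from the other strain. Among the 23 genes called lower, replicate 3 was the lowest control array in 16 (69.6%), against 31.5% of all genes called lower on the array. Replicate 3 of both strains was hybridized on a second slide, and the difference there was nearer to 0 than on the slide of replicates 1 and 2 in 19 of the 23 (82.6%), against 51.8% of all genes called lower. The second slide held no other replicate, so an effect of that slide cannot be told apart from one of replicate 3. The median log2 fold change of the 36 genes was -0.46 within the first slide, with 2 arrays per strain, and -0.27 within the second, with 1. For sulfate activation and reduction these medians were -0.59 and -0.34, and for the regulators -0.37 and -0.26. Without replicate 1 of the control, 15 of the 36 genes were called lower and 0 higher, the fewest of any array left out. Without that array 18.8% of all genes were called.

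A further 25 genes of sulfur metabolism were examined in the same fit. Of these 8 were called lower and 3 higher, where 13.1% and 16.5% of all genes were, so the share called higher was no larger than over the array. Their median log2 fold change was -0.16. *JLP1*, for a dioxygenase that releases sulfite from sulfonates, and *BDS1*, for a sulfatase, were at -0.47 (adjusted p = 0.00548) and -0.39 (adjusted p = 0.016) on the log2 fold scale. The high-affinity methionine permease gene *MUP1* had signals of 2.28, 2.28 and 2.04 in the control and 1.89, 1.66 and 1.84 in the disruptant (log2 fold change -0.40, adjusted p = 0.0151). *SSU1*, for the sulfite efflux pump, had a log2 fold change of -0.26 (adjusted p = 0.0398), and the call was lost for each array left out but replicate 2 of the control (adjusted p = 0.0596 to 0.117) and with medians over spots (adjusted p = 0.0529). *BDS1* and *MUP1* lost theirs without replicate 1 or 2 of the control (adjusted p = 0.0536 to 0.068). The remaining decreases were in genes that draw on these products or supply one-carbon units. They were *GSH1* (-0.36, adjusted p = 0.00689), for the first enzyme of glutathione synthesis, and *SHM1* (-0.38, adjusted p = 0.0124), *SHM2* (-0.33, adjusted p = 0.00956) and *ADE3* (-0.32, adjusted p = 0.014) of folate metabolism. *ADE3* lost its call without replicate 1 of the control (adjusted p = 0.0532) or replicate 1 of the disruptant (adjusted p = 0.0544).

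The higher genes were *TRX1*, *MDE1* and *MXR2*. *TRX1* encodes a cytosolic thioredoxin, which is an electron donor of Met16 but not the only thioredoxin. It had signals of -0.26, -0.09 and -0.25 in the control and 0.34, 0.34 and 0.04 in the disruptant (log2 fold change 0.44, adjusted p = 0.0142). Its call was lost without replicate 1 of the control (adjusted p = 0.0582) or replicate 1 of the disruptant (adjusted p = 0.0522). The other thioredoxin gene examined, *TRX2*, was brighter, with a mean signal of 3.39 in the control against -0.20 for *TRX1*. *TRX2* and the NADPH-dependent thioredoxin reductase gene *TRR1* were not called, with log2 fold changes of 0.08 (95% interval -0.13 to 0.30) and 0.05 (95% interval -0.11 to 0.21). The log2 fold changes of *MDE1*, of methionine salvage, and *MXR2*, for a mitochondrial methionine sulfoxide reductase, were 0.31 (adjusted p = 0.0331) and 0.28 (adjusted p = 0.0475). Both lost their call with scaling to the array median (adjusted p = 0.0533 and 0.112), *MDE1* also with quantile normalization (adjusted p = 0.0663) and *MXR2* with normexp (adjusted p = 0.0628), and with 3 and 5 of the 6 arrays left out in turn, among them replicate 1 of either strain. *THR1* and *THR4*, which take homoserine to threonine, were not called, with log2 fold changes of -0.01 (95% interval -0.22 to 0.20) and 0.03 (95% interval -0.21 to 0.27).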

How the data were processed

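RNA of 6 fermentation samples, 3 per strain, was hybridized to 1 single-colour Agilent yeast array each. The authors deposited Feature Extraction 10.1.1.1 output, with a background-subtracted intensity for each spot and no scaling between arrays. A log2 table deposited with them corresponded to the intensities shifted to the 75th percentile and centred on each probe's median (r of 0.9999 or above). Of 45209 spots, 43792 belonged to 6256 probes, each of which is counted here as a gene. Outlier spots were left out, the rest of a probe's 7 spots averaged on the log2 scale, and the array's 75th percentile subtracted. A probe was well above background when at least 4 spots were marked so. Symbols came from RefSeq R64, which lists 5756 of the systematic names. The gene order of R64 was used only to find neighbours, and no coordinates are given, since the build of the probe design is not given in the sources used here.

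Strain differences were fitted by limma 3.58.1 (lmFit, eBayes) in R 4.3.3, on all 6256 genes. The fit was also run on simulated data, and no conclusion about the calls is drawn from that run here. The 36 genes and other lists were chosen with earlier results of these data known. Per-array values are given for the NADPH-using steps, the regulators and the called genes among the 36, and the called genes of the other sulfur list are named. Slides were read from the array identifiers. Alternatives were normexp on the median signals (offset 50), quantile and median scaling, a filter on dim probes, medians in place of means over spots, no outlier removal, a variance trend on intensity, replicate and slide blocks, the deposited table and each array left out. The promoter motif search that was planned was not run, since no promoter sequences were used here.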

Additional observations from a re-analysis of the deposited data

How the results depend on the processing

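Under the 10 alternatives that kept the 6 arrays, the 24 called genes of the 36 kept their direction and call, and with an array left out 9 of the 24 lost it at least once. The count called lower was 23, and it was 23 to 26 under those 10 alternatives and 15 to 23 with an array left out, lowest without replicate 1 of YΔG/XK/XI. The count called higher was 0 with replicate 1 of either strain left out and 1 otherwise. Without replicate 1 of YΔG/XK/XI the calls over all genes fell to 691 higher and 487 lower, from 1033 and 819. With the replicate number as a block, 25 were called lower and 1 higher, as with the slide as a block. The block raised the calls over all genes from 29.6 to 37.8%, and the slide as a block to 36.8%. The numbers were not taken as pairs, since the correlations of same-numbered deviations were 0.07, 0.30 and 0.41, the first under 0.1. Also, replicate 1 of YΔGP/XK/XI correlated best with replicate 2 of YΔG/XK/XI (0.13). Between the strains, the correlations were -0.0019 to 0.41 for arrays of the same slide and -0.48 to -0.06 for arrays of different slides. The main fit had no term for the slide. *MET4* and *MMP1* were called lower under 9 of the 16 alternatives each, the replicate block (adjusted p = 0.0159 and 0.00885) and the slide block among them, with adjusted p from 0.0115 to 0.163 and from 0.00885 to 0.171, and *MHT1* only with quantile normalization (adjusted p = 0.0409).

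The median log2 fold change within the second slide was -0.27 for the 36 genes, -0.34 for sulfate activation and reduction and -0.26 for the regulators. For the later steps it was -0.22 with quantile normalization, -0.18 with median scaling, -0.21 within the first slide and -0.20 to -0.14 with an array left out. Of the other 25 sulfur genes, median scaling called 1 higher, and the fits with an array left out called 4 to 7 lower and 0 to 2 higher. Some uncalled changes near 0 turned sign. *HOM2* was at -0.044 and *HOM6* at -0.0060 with median scaling, and *SAM4* at -0.0051, -0.032 and -0.056 with normexp, quantile normalization and median scaling. With an array left out the ranges were -0.033 to 0.079 for *HOM2*, -0.068 to 0.075 for *SAM4*, -0.043 to 0.21 for *MET28* and -0.11 to 0.036 for *MET31*. The causes were not tested, and 3 arrays per strain limit the precision.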
